A study of Homo sapiens with 4 samples.

Results

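MicroRNA genes encode hairpin transcripts, from which mature miRNAs are cut. Genes of GENCODE biotype miRNA were taken where their mean over the 4 RNA-seq libraries of HCT116 human colorectal carcinoma cells was at least 1 FPKM (a fragment count corrected for exon length and for library size), which kept 164 of 1173 miRNA genes, among 58735 gene identifiers in all. The members were chosen by their mean FPKM over all 4 libraries, so these levels are a description. The cells had been transfected for 48 h with control siRNA (small interfering RNA, replicates 1 and 2) or with siRNA against KIF26B (replicates 1 and 2), 2 libraries each, with no other allele or agent named. HCT116 is 1 cell line, and nothing in the labels says that the replicates were separate cultures, so p-values measure only the spread between these libraries. Which KIF26B siRNA was used in each library is not given in the sources used here.

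A miRNA gene is transcribed as a long primary transcript, often as an intron or exon of a host gene. DROSHA and DGCR8 cut the hairpin out in the nucleus, XPO5 exports it, DICER1 trims it to a duplex, and an AGO protein loads 1 strand and, with a TNRC6 protein, silences mRNAs that pair with the seed, bases 2 to 8 of the mature miRNA. In poly(A) RNA-seq the reads on such a gene come from primary transcripts, host introns or host exons, and not from mature miRNAs, which are too short to enter these libraries. The levels below are therefore levels of precursor or surrounding RNA. In bulk RNA, fewer cells with a transcript and less of it per cell cannot be told apart.

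KIF26B, the targeted gene, was at 0.11 and 0.205 FPKM in the controls and at 0.14 and 0.0307 FPKM in the libraries labelled KIF26B siRNA, from 31, 73, 43 and 8 reads. Replicate 1 of the libraries labelled KIF26B siRNA lay between the controls, and replicate 2 lay below them, so every direction given below is that of the labels. The library sizes behind the FPKM values, inferred from those values and not given by the authors, ranged from 18068934 to 24673739 fragments a library. Epithelial markers were present, with 8 of 9 at 1 FPKM or more and a summed level of 1643 to 1768 FPKM in each library. Endothelial markers summed to 0.114 to 0.402 FPKM and leukocyte markers to 0.305 to 0.455 FPKM, and 1 of 6 fibroblast markers reached 1 FPKM.

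The mature sequences are shown first for the members whose levels differed past the unadjusted thresholds used below, because these members are described singly there. Capitals mark the seed. They are RefSeq sequences (GRCh38.p14), which were found for 149 of the 164 members, and where both arms were listed 1 is shown.
miR-4737: aUGCGAGGaugcugacagug
miR-4261: aGGAAACAgggaccca
miR-4512: cAGGGCCUcacuguaucgccca
miR-425-3p: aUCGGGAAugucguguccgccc
miR-548aq-5p: gAAAGUAAuugcuguuuuugcc
miR-648: aAGUGUGCagggcacuggu
miR-3680-5p: gACUCACUcacaggauugugca
miR-4484: aAAAGGCGggagaagcccca
miR-3132: uGGGUAGAgaaggagcucagagga
miR-5702: uGAGUCAGcaacauaucccaug
miR-181a-5p: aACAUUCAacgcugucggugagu
miR-135a-5p: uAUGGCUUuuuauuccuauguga
miR-4731-5p: uGCUGGGGgccacaugagugug
miR-331-3p: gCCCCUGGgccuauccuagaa
miR-149-5p: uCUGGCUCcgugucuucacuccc

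The second set holds members that share a seed with another member, so that their values can be read by family. Over 217 mature sequences of the members, 197 distinct seeds were found, and 15 seeds were shared by 2 or more of 29 members.
miR-221-3p: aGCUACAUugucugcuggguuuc
miR-222-3p: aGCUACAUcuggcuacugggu
miR-200b-3p: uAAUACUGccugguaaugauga
miR-429: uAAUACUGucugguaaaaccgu
miR-200a-3p: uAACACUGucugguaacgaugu
miR-141-3p: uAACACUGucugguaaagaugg
let-7a-5p: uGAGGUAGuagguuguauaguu
let-7d-5p: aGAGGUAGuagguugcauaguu
miR-98-5p: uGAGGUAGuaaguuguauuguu
miR-181b-5p: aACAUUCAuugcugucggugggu
miR-135b-5p: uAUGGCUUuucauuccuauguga

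The members were short and thinly read. Their lengths ran from 41 to 144 bases, with a median of 84. At the median length 1 read was worth 0.482 to 0.659 FPKM, against 0.0203 to 0.0277 FPKM for a gene of 2000 bases. The whole reads behind the values could be recovered, and a member held 4 to 271 reads over the 4 libraries, with a median of 16.5. Of the 164 members, 91 had under 20 reads in all, 40 had under 10, and 8 had at least 100. All members together held 1071 and 1359 reads in the controls, and 1342 and 1213 in the libraries labelled KIF26B siRNA. A read was present in every library for 109 members, while 55 had none in at least 1 library. Intervals on reads cover counting error only.

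At the threshold, MIR569 (1.002 FPKM, 8 reads) and MIR1972-1 (1.064 FPKM, 7 reads) were the last inside. MIR191 (0.991 FPKM, 9 reads) and MIR148B (0.987 FPKM, 8 reads) were the first outside. All 9 reads of MIR191 came from control siRNA replicate 2.

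The highest level was that of MIR4292, which lies in an intron of RABL6, a gene for a RAB-like GTPase (chr9:136830957-136831023, plus strand, GRCh38.p14). It was at 44.1 and 41.7 FPKM in the controls and at 25.2 and 46.3 FPKM in the libraries labelled KIF26B siRNA. The groups overlapped, with 1 low library, and the log2 difference was -0.32 (SE 0.32, adjusted p = 0.652 in limma). Its host was at 8.62, 8.8, 10.5 and 10.0 FPKM.

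MIR621 lies in an exon of SLC25A15, the mitochondrial ornithine transporter. It was at 31.8 and 24.1 FPKM in the controls, and at 48.8 and 31.1 FPKM in the libraries labelled KIF26B siRNA. MIR4664, in an intron of FAM83H, was at 30.1, 31.4, 54.1 and 18.7 FPKM in the same order, while FAM83H was at 28.1, 31.1, 45.2 and 20.7 FPKM. The member and its host were thus both highest in replicate 1 and lowest in replicate 2 of the libraries labelled KIF26B siRNA, and the controls lay between. MIR221, in an exon of the long noncoding RNA MIR222HG (chrX:45746157-45746266, minus strand), was at 27.8, 22.1, 40.4 and 22.1 FPKM.

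MIR570, in an intron of MUC20-OT1, varied least of the 10 members with the highest levels, at 25.7, 28.0, 26.5 and 26.8 FPKM. MIR1254-1, in CCAR1, was at 23.1, 16.7, 20.8 and 25.1 FPKM. MIR3189, in the intron of GDF15, a stress-induced cytokine, was at 10.5, 15.0, 39.8 and 11.4 FPKM. Only replicate 1 of the libraries labelled KIF26B siRNA was high for MIR3189, where GDF15 was at 233, 244, 268 and 213 FPKM.

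MIR635, in WIPI1, an autophagy gene, was at 17.7, 10.3, 24.8 and 17.5 FPKM. MIR3685, in no host, was at 16.4, 8.5, 8.3 and 29.5 FPKM. MIR5581, in an intron of MEAF6, a histone acetyltransferase subunit, was at 7.64 and 9.46 FPKM in the controls and at 16.4 and 14.8 FPKM in the libraries labelled KIF26B siRNA. MIR5581 was the one of these 10 whose groups did not overlap, which held for 52.6% of all genes tested and so does not set it apart. Its log2 difference was 0.80 (SE 0.15, adjusted p = 0.242, limma), under the size threshold of 1.

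By recovered reads, 8 of these 10 were also among the 10 members with the most reads, joined by MIR590 and MIR647. MIR590, in EIF4H, a translation initiation gene, was at 12.1, 13.8, 8.2 and 9.7 FPKM, with no overlap between groups and a log2 difference of -0.49 (SE 0.15, adjusted p = 0.274, limma). MIR647, in UCKL1, was at 7.96, 9.71, 5.85 and 17.3 FPKM, and its groups overlapped.

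Most members lay inside another gene. Of the 164, 148 lay within a protein-coding gene (123) or a long noncoding RNA gene (25), 129 of them on the same strand and 19 on the opposite strand, while 16 had no host. An intron held 139 members and an exon held 9. Among intronic members the median distance to the nearest exon of the host was 981 bases, and 22 lay within 150 bases of one. Use of the strand in counting is not given in the sources used here, so fragments of a member and of a gene on the opposite strand cannot be told apart.

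Intronic miRNA genes were read more often the higher their host was. In hosts with a mean under 0.1 FPKM, 7 of 293 miRNA genes had a read and 2 reached 1 FPKM. In hosts of 10 FPKM or more, 106 of 138 (76.8%) had a read and 61 (44.2%) reached 1 FPKM. Of 247 miRNA genes with no host, 56 (22.7%) had a read. Where a miRNA gene overlapped an exon of a protein-coding or long noncoding RNA gene, 23 of 101 (22.8%) had a read, against 409 of 1072 (38.2%) elsewhere. A fragment that overlaps exons of 2 genes is by default left uncounted by the counting tool in the submitters' processing notes, and the part of this in the lower share was not tested.

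Over the 128 members with a same-strand host above 0, the rank correlation of the mean levels was 0.34, a description over genes of the same 4 libraries. A member was below its host in 96 pairs and above it in 32, with a median ratio of 0.335. Levels per length of such short genes are raised by fragments that overlap them only in part, so the ratio does not compare molecules.

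The comparison of the libraries labelled KIF26B siRNA with the controls asks whether precursor RNA levels differed after KIF26B siRNA. A gene was called where limma gave an unadjusted P below 0.05 and a log2 difference beyond 1, the study's thresholds, on log2(FPKM + 1). With that pseudocount, differences of low genes are understated. Of the 164 members 15 were called, 12 higher and 3 lower in the libraries labelled KIF26B siRNA, which is 9.15% against 1.42% of the 14523 genes tested (0.813% higher and 0.606% lower). No gene tested passed an adjusted p of 0.05, and the smallest adjusted p was 0.242, while 30 members (18.3%) and 2385 of all genes tested (16.4%) had an unadjusted P below 0.05. That count rested on 1 library: without replicate 1 of the libraries labelled KIF26B siRNA, limma gave 2507 genes an adjusted p below 0.05 (smallest 0.0463), 17 members among them, and 5 of these were called members. In that fit the lone KIF26B-labelled library was assumed to vary like the controls, and with any of the other libraries left out the count was 0. Among genes with under 50 reads, 7.77% were called, against 10.5% of the 143 members in that range. With 50 reads or more, 0.963% of all genes tested were called and none of the 21 members was. With so few members that is no result about them. The called members held 6 to 42 reads.

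Because the filter uses the mean of all libraries, a thinly read gene could pass through the group where it was high. The control mean was under 1 FPKM in 10 of the 12 members called higher, and the mean of the libraries labelled KIF26B siRNA was under 1 FPKM in 1 of the 3 called lower. The count of calls is therefore no support for a difference of the members as a class. Over all 164 members the median log2 difference was 0.26, with 100 above 0, against -0.01 and 48.4% above 0 over all genes tested. The control mean was under 1 FPKM in 34 members, and the mean of the libraries labelled KIF26B siRNA in 17. More members thus passed the filter through the libraries labelled KIF26B siRNA, so the median is no support either. The groups did not overlap in 60 members (43 higher, 17 lower, 36.6%), against 52.6% of all genes tested.

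**Figure D1:**
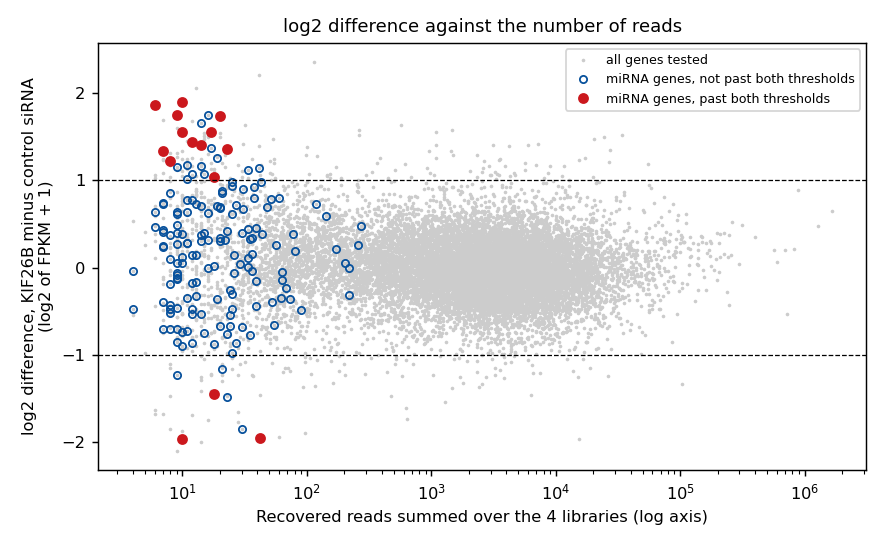
log2 difference, KIF26B-labelled minus control siRNA (vertical axis, log2 of FPKM + 1), against the recovered reads summed over the 4 libraries (horizontal, log axis) for all genes tested and for the miRNA genes. The called miRNA genes lie at 6 to 42 reads, where the spread of all genes is wide.

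MIR4737, in an exon of HEATR6 (chr17:60043025-60043105, minus strand), was read at 13.2 and 7.51 FPKM in the controls and at 1.16 and 2.73 FPKM in the libraries labelled KIF26B siRNA. The reads behind these values were 21, 15, 2 and 4, the most of any called member, and both groups stood apart. The log2 difference was -1.95 (SE 0.40, adjusted p = 0.242, limma), and the ratio of pooled read rates was 0.187 (95% interval 0.0645 to 0.449). HEATR6 itself was at 10.1, 9.88, 8.63 and 8.86 FPKM, a log2 difference of -0.17.

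MIR4261 lies opposite to an intron of RRM2, the small subunit of ribonucleotide reductase, and held 4, 11, 1 and 2 reads (3.51, 7.69, 0.807 and 1.91 FPKM). Its log2 difference was -1.45 (SE 0.43, adjusted p = 0.272, limma). MIR4512, in an intron of SNAPC5, held 6 and 4 reads in the controls and none in either library labelled KIF26B siRNA. With 3 reads put in place of 0 for that group, it was 2.97-fold lower. This value takes the control reads as exact, so it is not a lower bound.

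MIR425 lies in an intron of DALRD3 (chr3:49020148-49020234, minus strand) and had no read in either control, against 7 and 3 reads (3.77 and 1.91 FPKM) in the libraries labelled KIF26B siRNA. With 3 reads put in place of 0 for the controls, it was 3.75-fold higher, which again is not a lower bound. DALRD3 was at 7.86, 8.17, 7.55 and 10.2 FPKM, a log2 difference of 0.12. MIR191, in the same host and just under 1 FPKM, had its reads in 1 control library alone, so the pair of miRNA genes in DALRD3 did not show the same library pattern.

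MIR548AQ, in IGF2BP2, an RNA-binding protein gene, had no read in either control and 3 reads in each library labelled KIF26B siRNA. By the same replacement of 0 it was 2.25-fold higher. MIR648, in MICAL3, had 0, 0, 3 and 6 reads and was 3.37-fold higher in the same way, and neither value is a lower bound. These are the called members with no control read, and each rests on 10 reads or fewer.

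MIR181A2, in an intron of MIR181A2HG (chr9:124692442-124692551, plus strand), held 1 and 1 reads in the controls, and 7 and 5 in the libraries labelled KIF26B siRNA, which is 0.463, 0.368, 2.98 and 2.52 FPKM. Its groups stood apart, with a log2 difference of 1.40 (SE 0.13, adjusted p = 0.242, limma) and a rate ratio of 6.74 (95% interval 1.5 to 62.0). MIR181A2HG was at 0.77, 0.551, 0.707 and 0.669 FPKM, below the filter, and its groups overlapped.

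MIR135A1, in an intron of GLYCTK-AS1 and over an exon of GLYCTK on the other strand, held 1, 5, 9 and 8 reads and had a log2 difference of 1.36 (SE 0.39, adjusted p = 0.27, limma). miR-135a is known as a repressor of the tumour suppressor APC in colorectal cancer. MIR3132, opposite to TMEM198, held 2, 1, 5 and 9 reads, a log2 difference of 1.56. MIR149, in GPC1, which encodes a cell surface proteoglycan, held 2, 3, 8 and 5 reads, a log2 difference of 1.04, and the interval of its rate ratio of 2.92 ran from 0.977 to 10.5 and so held 1.

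MIR3680-2 held 0, 4, 7 and 9 reads and its copy MIR3680-1 held 4, 1, 4 and 5. The copies give the same mature sequences, so reads of one may have been counted for the other. MIR5702 held 2, 0, 5 and 5 reads, MIR4484 held 1, 0, 4 and 5, MIR331 held 1, 0, 3 and 4, and MIR4731, in the myelin gene PMP22, held 0, 1, 3 and 3. Each of these rests on 20 reads or fewer over all libraries, and the interval for MIR4731, from 0.818 to 310.1, held 1.

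**Figure D2:**
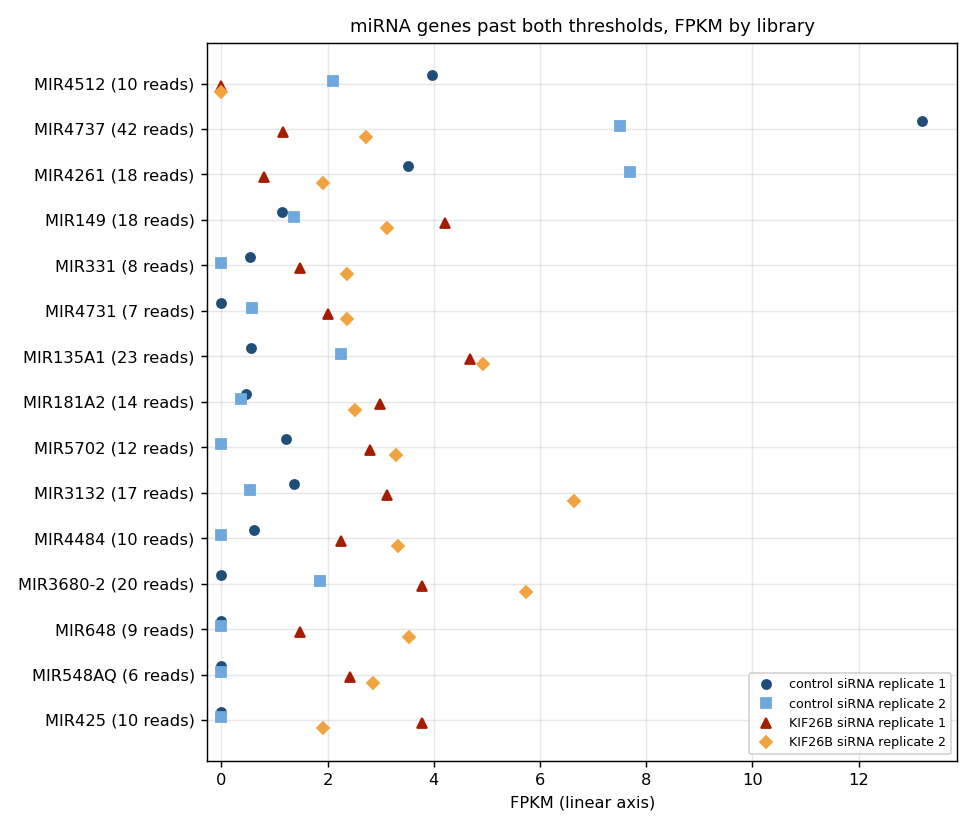
FPKM (horizontal axis, linear) of the 15 called miRNA genes, with 1 point for each library and the recovered reads in brackets. In every one the 2 points of one group lie on the same side of both points of the other, and MIR4737 has the widest gap. The genes were chosen by their difference in these same libraries, so the separation is no support.

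Leaving out 1 library at a time kept the sign of all 15 called members. This was fixed in advance because the groups of each did not overlap, so it is no support. Each of these fits leaves 1 group with a single library, which is assumed to vary like the other group. MIR4737, MIR4512, MIR425, MIR548AQ, MIR648, MIR181A2, MIR4484 and MIR4731 were past both thresholds each time, and the other 7 were not. All of the 8 but MIR4737 had a mean under 1 FPKM in their lower group and passed the filter through the higher one, so their staying past the thresholds is no support. Without control siRNA replicate 1, the log2 difference was 0.83 for MIR135A1, 0.98 for MIR3680-2 and 0.97 for MIR149. Without control siRNA replicate 2, it was -0.98 for MIR4261, 0.87 for MIR5702 and 0.91 for MIR331. Without KIF26B siRNA replicate 1, calls were lost for MIR4261 (-1.11), MIR135A1 (1.39), MIR3680-2 (1.99), MIR149 (0.87) and MIR5702 (1.53). Without KIF26B siRNA replicate 2, they were lost for MIR135A1 (1.33), MIR3132 (1.11), MIR3680-2 (1.49), MIR5702 (1.35) and MIR331 (1.01), while MIR3189 passed the thresholds at 1.59.

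The spread between replicates was also set beside counting error, as a description. Taking members whose 2 replicates summed to 10 reads or more, the mean squared difference was 2.07 times the counting expectation for the controls (67 members) and 3.74 times for the libraries labelled KIF26B siRNA (76 members). Of all members, 54 had over 50% of their library-scaled reads in 1 library, and 21 of these had them in replicate 2 of the libraries labelled KIF26B siRNA. The rule on the mean level keeps genes that are high in 1 library, so some excess over counting error comes with the choice of members.

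Members and host genes were then set side by side. A host on the same strand passed the filter for 115 members. The sign of the log2 difference was shared in 68 of the pairs, and the member's difference was the larger in 85. The median size was 0.49 for members and 0.18 for hosts, and the median of member minus host was 0.12, within a range of -2.25 to 2.0. In the 18 pairs whose member had at least 50 reads, 12 lay within 0.5 of each other, against 43 of 97 pairs with fewer reads. None of the 10 tested hosts of called members was called, where 1.42% of all genes tested were, so that count is no result about the hosts. The largest difference among these 10 hosts was 0.31 in size (smallest adjusted p = 0.312, limma). The difference between a member and its host was not tested, and 2 against 2 libraries allow an exact permutation p no smaller than 0.333.

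**Figure D3:**
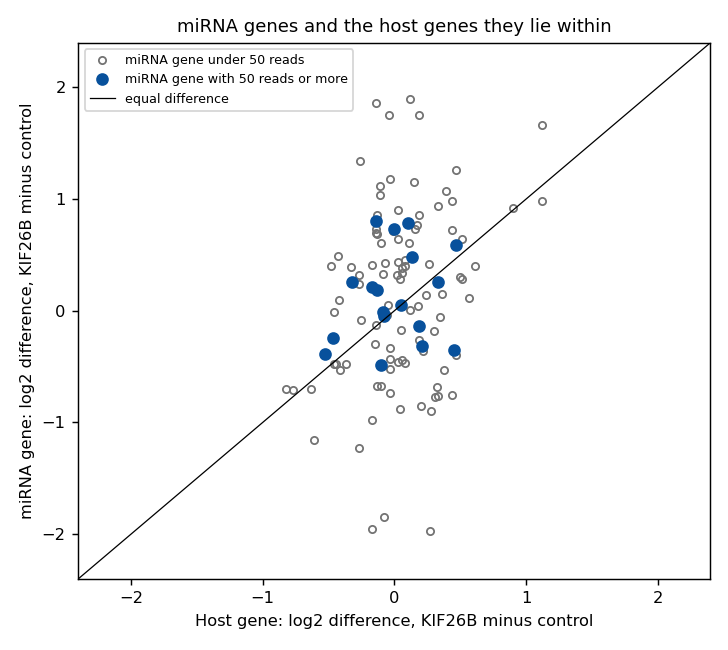
log2 difference of the miRNA gene (vertical axis) against that of its same-strand host (horizontal axis), 115 pairs, with the line of equal difference. The median gap between member and host was 0.34 in the 18 pairs whose member had 50 reads or more, and 0.54 in the 97 others. The sign was shared in 11 of the 18 and in 57 of the 97. Members with fewer reads reach -1.97 and 1.90 where their hosts are near 0.

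MIR100HG, the long noncoding host of MIR125B1 and MIRLET7A2, was the only host called. It was at 2.0 and 1.82 FPKM in the controls and at 4.61 and 6.11 FPKM in the libraries labelled KIF26B siRNA, on 761, 871, 1911 and 2139 reads, with no overlap. Its log2 difference was 1.12 (SE 0.16, adjusted p = 0.242, limma). MIR125B1 held 2, 14, 20 and 7 reads and its groups overlapped, with a log2 difference of 0.98 (SE 0.75). MIRLET7A2 held 0, 1, 12 and 1 reads, so replicate 1 of the libraries labelled KIF26B siRNA alone carried its log2 difference of 1.66 (SE 0.86). Without replicate 2 of the libraries labelled KIF26B siRNA, the difference of MIR100HG was 0.95 and it was not called.

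Values differed among members that share a seed. MIR221 and MIR222, both within MIR222HG and known for repressing the cell cycle inhibitor CDKN1B, had log2 differences of 0.26 and 0.94, and neither was called. MIR200B, MIR200A and MIR429 lie close together on chromosome 1. The miR-200 family represses the ZEB factors and is known for maintaining the epithelial state. MIR200B held 0, 4, 9 and 4 reads, MIR200A held 0, 4, 0 and 5, and MIR429 held 5, 9, 9 and 15. Their log2 differences were 1.37, 0.27 and 0.80, while MIR141, which shares a seed with MIR200A, had -0.90 on 3, 5, 1 and 1 reads. None of these 4 was called.

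Of the 15 shared seeds, 6 had members with log2 differences of 1 sign and 9 had both signs, and no difference within a group was tested. In the let-7 seed group, which represses growth genes such as RAS and HMGA2, MIRLET7D held 5, 2, 8 and 6 reads, a log2 difference of 0.88 (SE 0.38). MIR98, in HUWE1, held 3, 11, 3 and 1 reads, a log2 difference of -0.88 (SE 0.44), and MIRLET7A2 is given above. In the miR-181 seed group, MIR181B1 held 12, 7, 6 and 2 reads, a log2 difference of -0.86 (SE 0.44), and MIR181B2 held 5, 1, 6 and 2, a log2 difference of 0.37 (SE 0.60), beside 1.40 for MIR181A2. MIR135B, which shares its seed with MIR135A1, held 10, 5, 8 and 1 reads, a log2 difference of -0.67 (SE 0.69). The 4 members with the seed of miR-548aq-5p (MIR548AQ, MIR548AK, MIR548AR and MIR559) all had differences above 0, of 1.86, 0.05, 0.04 and 0.45.

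MIR33A and MIR33B lie in the sterol regulators SREBF2 and SREBF1. MIR33A held 2, 3, 1 and 3 reads and MIR33B 5, 4, 4 and 14, and SREBF1 was at 29.0, 28.7, 30.7 and 51.0 FPKM, so replicate 2 of the libraries labelled KIF26B siRNA was high for both MIR33B and its host. MIR25, in the replication licensing gene MCM7, was at 9.1, 5.79, 10.0 and 7.91 FPKM, while MCM7 was at 84.9, 81.6, 61.1 and 72.3 FPKM.

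Genes of the miRNA pathway were measured from far more reads. Of 42 listed, 39 passed the filter and none was called in either direction, where 1.42% of all genes tested were. An unadjusted P below 0.05 in limma was reached by 2 with a higher level and 4 with a lower one. Over all genes tested that share was 16.4%, so these counts are no result about the pathway. Their median log2 difference was -0.11, against -0.01 over all genes tested. DGCR8 was at 9.73 and 9.05 FPKM in the controls and at 7.19 and 6.19 FPKM in the libraries labelled KIF26B siRNA. Its groups did not overlap, which held for 52.6% of all genes tested. The log2 difference was -0.44 (SE 0.13, adjusted p = 0.273, limma). DROSHA, its partner, had 0.07, the exporter XPO5 0.14 and DICER1 -0.27.

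Among the AGO genes, the log2 differences were -0.03 for AGO1, -0.41 for AGO2, -0.25 for AGO3 and -0.01 for AGO4. TNRC6A, which links AGO to mRNA decay, was at 10.4, 11.2, 7.71 and 5.41 FPKM, a log2 difference of -0.65 (SE 0.19, adjusted p = 0.272, limma), and TNRC6B and TNRC6C had -0.13 and -0.52. DICER1 is the host of MIR3173, which held 2, 1, 3 and 1 reads, and SND1 is the host of MIR593, which held 9, 5, 4 and 8. SND1 had 0.35 and MIR593 -0.06.

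A further list held 95 long noncoding genes that host miRNA genes or served as noncoding references. Of these, 25 passed the filter and MIR100HG was the one called, in the higher direction, where 0.813% of all genes tested were. Their median log2 difference was 0.26 with 21 of 25 above 0, against -0.01 and 48.4% above 0 over all genes tested. The filter again used the mean of all libraries. FTX, MIR17HG, MIR34AHG, MIR4713HG and MIRLET7BHG had a control mean under 1 FPKM. CYTOR and MIR3659HG had a mean under 1 FPKM in the libraries labelled KIF26B siRNA. The median and the count above 0 are therefore no support for a difference of these genes as a class. GAS5, which carries small nucleolar RNAs, was at 55.8, 57.1, 80.4 and 115 FPKM, a log2 difference of 0.76 under the size threshold. MIR17HG had 0.49 and MIR3659HG -0.56.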

How the data were processed

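RNA of HCT116 cells was sequenced in 4 libraries, 2 for each label. The authors deposited 1 FPKM value for each gene and library. Per the study's methods, poly(A) RNA was read as paired ends. Submitters' processing notes name HISAT2 2.0.5, featureCounts 1.5.0-p3 and hg38, whereas the methods name another build, and which was used was not settled: the counted length equalled the GRCh37 annotation in 162 of 164 members and the RefSeq GRCh38.p14 hairpin in 128 of 132. The annotation is not given in the sources used here. Biotypes, symbols and host relations were taken from GENCODE for GRCh37, which matched 56513 of 58735 identifiers, and positions and sequences from RefSeq GRCh38.p14 (132 member hairpins).

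A host was the shortest protein-coding or long noncoding gene whose span held the member on its strand, or else on the other strand. Whole reads were recovered by multiplying FPKM by gene length and the library's divisor (tolerance 0.01 reads), for 99.6% of genes above 0. The divisor was inferred as the value that made the miRNA genes come out as whole reads. Recovered reads summed over genes exceeded the divisor in every library, with 19736494 against 18068934 in KIF26B siRNA replicate 2. The reason was not tested. No count test was used as the main test. limma 3.58.1 in R 4.3.3 was fitted to log2(FPKM + 1) over genes whose mean reached 1 FPKM, without a block, with Benjamini-Hochberg adjustment over all 14523 genes. It was run on simulated reads with a small replicate spread, where only genes of at least 2 FPKM were changed. As 72 members lie under 2 FPKM, that run does not show how the fit does on thinly read members. Rate ratios pool the reads of a group, with exact conditional binomial 95% intervals. Members, gene lists and alternatives were chosen with earlier results of these data known. Named genes were KIF26B, called members, the 10 with the highest FPKM and the most reads, their hosts, members next to the threshold or sharing a seed or host, and core pathway genes. GAS5, MIR17HG, MIR3659HG, MIR3173, MIR593 and SRSF3 were named after their values were seen.

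Same-numbered replicates did not deviate together (r = -0.003 over all genes tested), so the numbers were not taken to pair the libraries. Alternatives were a replicate block, another pseudocount, other filters, a variance trend, other scalings, limma-voom on recovered reads and leaving out each library. Scaling by total recovered reads was chosen after seeing the data.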

Additional observations from a re-analysis of the deposited data

How the results depend on the processing

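Against 12 members called higher and 3 lower, requiring 1 FPKM in every library left 1 and 1 of 68 members tested, requiring 10 reads in 2 libraries left 0 and 1 of 32 members tested, and an adjusted p below 0.05 left 0 and 0. In these the smaller number of members tested or the stricter threshold is part of the setting. limma-voom on the recovered reads called 6 members higher, a pseudocount of 0.1 called 7 lower, and the replicate block called 5 lower, with no other call count of the members, machinery or host lists moved by over 1.5 times by the block. Leaving out 1 library gave 14 to 23 members higher and 6 to 11 lower. Over all genes, against 118 higher and 88 lower, a pseudocount of 0.1 gave 217 and 203, 1 FPKM in every library 69 and 52, limma-voom 196 and 204, 10 reads in 2 libraries 76 higher, an adjusted p below 0.05 0 and 0, and leaving out 1 library 156 to 334 and 123 to 223. Genes with an adjusted p below 0.05 numbered 2507 without KIF26B siRNA replicate 1 and 0 without any of the other libraries. Without 1 library, 0 to 1 pathway gene (SRSF3, without KIF26B siRNA replicate 1) was called lower and 0 to 3 host genes higher. The members numbered 164 at 1 FPKM, 274 at 0.5, 92 at 2 and 32 with 10 reads in 2 libraries as well. The median of member minus host ranged from 0.06 to 0.25 without 1 library. Every called member kept its sign under each setting in which it was tested, which is no support because their groups did not overlap. Past the unadjusted thresholds in all tested settings that kept every library were 8 of 15. Of these only MIR4737 was tested in all 9 such alternatives. The others were tested in 7, because they did not pass the filters of 1 FPKM in every library or 10 reads in 2 libraries. Their staying past the thresholds is therefore no support. Depth limits the precision, since at the median length 1 read is worth 0.482 to 0.659 FPKM. The cause was not tested for the other changes.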
